A study of Mus musculus with 7 samples.

Results

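The Ly6 genes encode a family of small cell surface proteins, and 9 of them were examined here on microarrays of naive CD8 T cells from mouse lymph nodes: Ly6a, Ly6c1, Ly6c2, Ly6d, Ly6e, Ly6f, Ly6g, Ly6i and Ly6k. The members were taken as every non-control probe whose gene name in the scanner files was one of these names. This gave 9 probes for 8 genes, out of 55681 probes and 34797 gene names on the array. Ly6c1 had 2 probes, 7 genes had 1 probe each, and no probe carried the name Ly6c2, so that gene is not analysed here. The members were chosen by their measured levels in this same comparison, in which earlier work on these data had found Ly6a, Ly6c1 and Ly6g higher in Lck-off cells. All their values below are therefore a description and carry no p.

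Lck, a tyrosine kinase that relays signals of the T cell receptor, had been turned off, per the labels, in 1 of the 2 groups. The Lck-off group held 4 samples from OT-1het, Rag-/-, Lck-/- mice that had lived on a knocked-in, doxycycline-dependent Lck, which was turned off by 7 days without the drug in the diet. The WT group held 3 samples from OT-1het, Rag-/- mice, for which the labels name no inducible Lck and no diet. Lck genotype, the knocked-in copy and the drug therefore cannot be told apart. Both groups thus carried the OT-1 receptor on a Rag-/- background, and both were sorted as CD8b+ CD44low cells before total RNA was extracted. The labels do not say which promoter drives the inducible Lck or how many animals stand behind a sample. The samples are described as biological replicates, and the errors below measure the spread between them.

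Ly6 proteins are held on the outer face of the cell membrane by a glycosylphosphatidylinositol (GPI) anchor and share a cysteine-rich fold, the LU domain. Several lie side by side on mouse chromosome 15, and many are used as cell markers: Ly6a is the stem cell antigen Sca-1, Ly6c1 and Ly6c2 encode Ly6C, found on memory CD8 T cells and on monocytes, and Ly6g marks neutrophils. Ly6a and Ly6c are also known as genes that interferons induce in lymphocytes. The copies resemble each other in sequence, so a probe for one can bind RNA of another.

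The probes were therefore compared with each other and with all other probes of the same stretch of chromosome 15 (probe positions are those of the scanner files, on build mm9). Among the 36 pairs of Ly6 member probes, the longest run of identical bases was 4 to 9 of 60, and no pair shared a run of 15 or more. Probes were compared with probes only, and not with the transcripts of other members. Short runs between probes therefore do not show whether a probe can bind RNA of another member. The Ly6g probe shared a run of 28 bases with a probe of ENSMUST00000089689, which the files describe as a predicted pseudogene. The Ly6g probe lies on the plus strand at chr15:74989023-74989082, and the pseudogene probe on the minus strand at chr15:75066100-75066159. In the best alignment without gaps, 39 of 48 aligned bases matched. Both probes are shown because the shared run, in capitals, is the place where RNA of one locus could bind the probe of the other, beside the 2nd Ly6c1 probe, which has no such run.
Ly6g probe: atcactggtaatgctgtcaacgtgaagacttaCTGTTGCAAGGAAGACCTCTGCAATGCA
ENSMUST00000089689 probe: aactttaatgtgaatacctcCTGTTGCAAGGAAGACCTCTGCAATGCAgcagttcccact
Ly6c1, 2nd probe: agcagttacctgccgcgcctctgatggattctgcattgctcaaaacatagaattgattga

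The arrays were alike in brightness, with 75th percentiles of intensity between 207.9 and 242.9 and 42.5% to 48.6% of probes well above background. No Ly6 spot was saturated, uneven or an outlier on any array. All levels below are log2 intensities relative to the 75th percentile of the same array, so 0 is that percentile and levels of different probes are not set against each other. Lck itself read 8.52, 8.83, 8.60 and 8.55 on the Lck-off arrays, against 8.99, 9.02 and 8.98 on the WT arrays, a difference of -0.37 (SE 0.09, limma adjusted p = 0.0493). The call was lost without any 1 of WT replicates 1, 2 and 3 or Lck-off replicates 1, 3 and 4 (adjusted p 0.0982 to 0.154). Its single probe may lie outside the disrupted part of the gene, which the labels do not describe. The slide had 2 rows of arrays. Row 1 held Lck-off replicates 2 and 3 with WT replicate 3, and row 2 held the other 4 arrays.

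Most Ly6 genes were higher in Lck-off cells, by very unequal amounts. All 8 genes with a probe passed the filter on dim probes, which asked for 3 or more of the 7 arrays well above background. Of these, 7 genes were past the limma threshold of adjusted p 0.05, all of them higher, and Ly6i was not; over all 18231 genes, 8.38% were past it in either direction, 3.8% higher and 4.57% lower. The 4 Lck-off arrays did not overlap the 3 WT arrays for 7 of the 8 genes, against 21.8% of all genes (9.8% with every Lck-off array above every WT array). Nothing is read from either count, since the members were chosen with this comparison known, and Ly6d and Ly6f passed the filter through the Lck-off arrays alone. The median difference, Lck-off minus WT, was 2.30 over the 8 genes and -0.01 over all genes. Over the same 8 genes it was 0.96 after normexp background correction and 0.98 in the authors' deposited table.

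**Figure D1:**
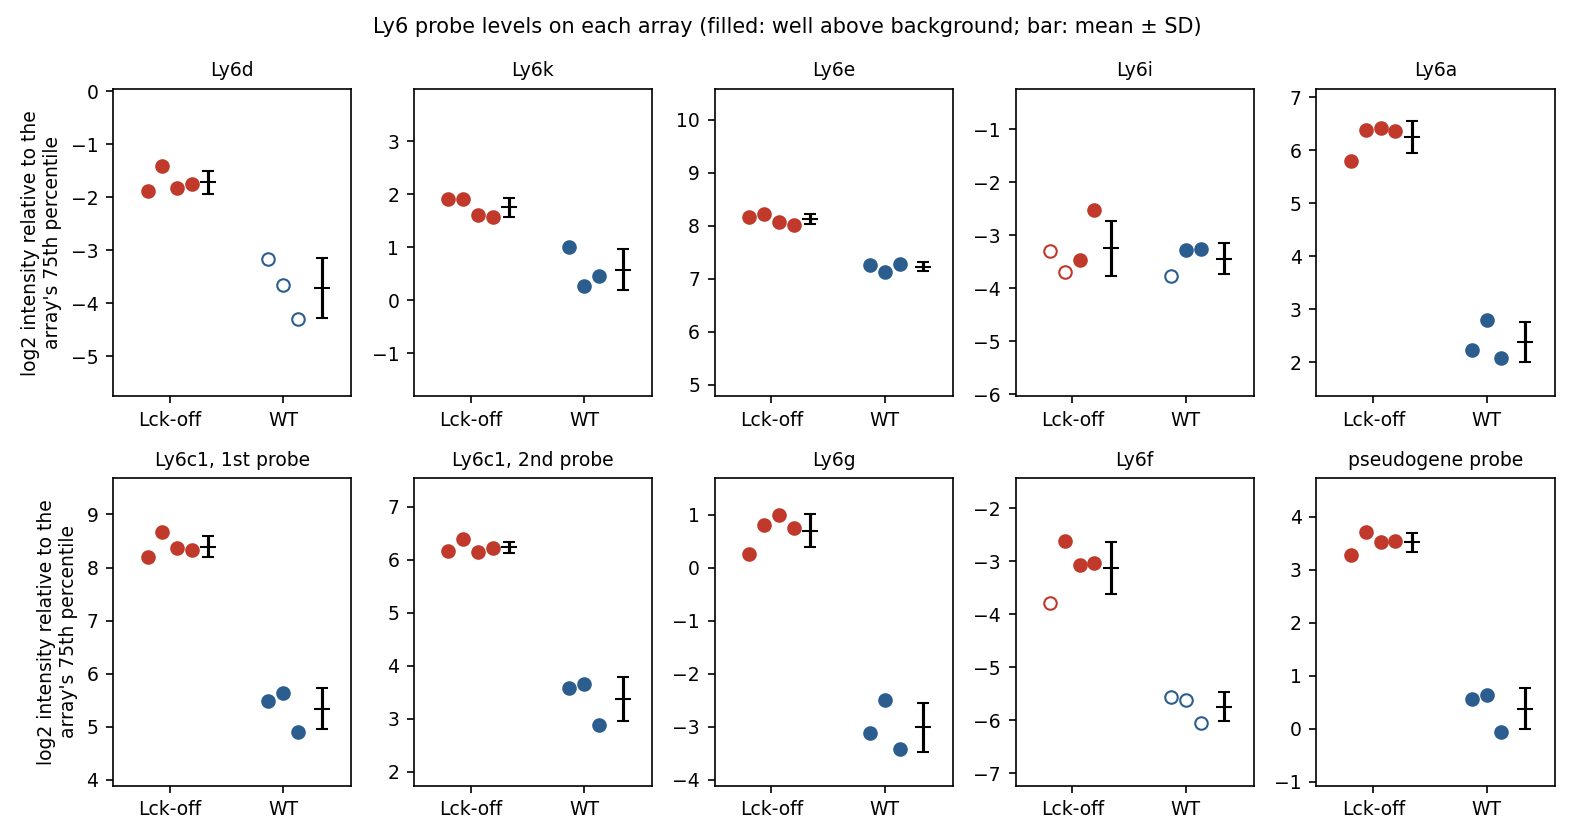
Levels of the 9 Ly6 probes and of the pseudogene probe on each array (y axis: log2 intensity relative to the array's 75th percentile, the same span in every panel; x axis: group), with the 4 Lck-off arrays in red and the 3 WT arrays in blue. Open points were not well above background, bars are the mean ± SD, and only Ly6i has overlapping groups.

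Ly6a, which encodes Sca-1, a surface antigen of blood stem cells that activated lymphocytes also carry, had the largest difference of the family. Its level was 5.79, 6.38, 6.43 and 6.37 on the Lck-off arrays and 2.24, 2.81 and 2.09 on the WT arrays. Every Lck-off array was far above every WT array, and Lck-off replicate 1 stood below the other Lck-off arrays, which lay within a narrow band. The means were 6.24 ± 0.30 in Lck-off cells (SD, n = 4) and 2.38 ± 0.38 in WT cells (SD, n = 3). The difference was 3.86 (SE 0.22), or 14.6-fold, and ranked 17th from the top among the 18231 genes. In scanner units the probe read 12240 to 20899 on Lck-off arrays and 983.4 to 1472 on WT arrays, so it was well above background in both groups. The probe, from base 522 of its transcript, lies at chr15:74825553-74825612 on the minus strand.

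Ly6c1, which encodes Ly6C, was also much higher in Lck-off cells, and its 2 probes gave close values. The 1st probe (chr15:74875495-74875554, minus strand) read 8.21, 8.67, 8.36 and 8.34 in Lck-off cells, against 5.48, 5.63 and 4.90 in WT cells. The 2nd (chr15:74877785-74877844, minus strand), whose sequence is printed above, read 6.17, 6.39, 6.15 and 6.23 in Lck-off cells, against 3.58, 3.65 and 2.88 in WT cells. At both probes the groups were far apart, Lck-off replicate 2 was the highest array and WT replicate 3 the lowest. The difference was 3.06 (SE 0.19), or 8.33-fold, at the 1st probe and 2.86 (SE 0.19), or 7.27-fold, at the 2nd. The 2 probes lie at different places on the transcript and share no long run of bases. Neither could be compared with Ly6c2, the near copy of Ly6c1, since no Ly6c2 probe or transcript sequence was used here, so RNA of both genes may enter these values.

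Ly6g, whose protein is the usual surface marker of neutrophils, was dim in WT cells, and the groups were clearly separated. It read 0.26, 0.80, 1.00 and 0.75 in Lck-off cells, against -3.12, -2.50 and -3.42 in WT cells. The difference was 3.71 (SE 0.25), or 13.1-fold, between means of 0.70 ± 0.32 (SD, n = 4) in Lck-off cells and -3.01 ± 0.47 (SD, n = 3) in WT cells. All 7 arrays were well above background, though the WT arrays were close to it. With normexp background correction, which adds an offset of 50 to every intensity, the difference was 2.09, and in the authors' deposited table it was 2.12, so the size of the Ly6g difference depended on how dim signals were treated. The pseudogene probe that shares 28 bases with it read 3.27, 3.72, 3.51 and 3.55 in Lck-off cells, against 0.56, 0.64 and -0.07 in WT cells. That locus was singled out after its values were seen; it differed by 3.14 (SE 0.19, limma adjusted p = 0.000391), or 8.79-fold. Whether Ly6g, the pseudogene or another Ly6 gene supplied the RNA at the Ly6g probe cannot be told apart on this array. The probe was not compared with transcripts of the other members.

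The order of the arrays was the same for Ly6g and Ly6a: Lck-off replicate 3 was highest, then replicates 2, 4 and 1, and among WT arrays replicate 2 was highest, then 1 and 3. The longest run of bases that these 2 probes could share was within the 4 to 9 bases given above. That does not show whether either probe can bind RNA of the other gene. WT replicate 3 was the lowest WT array at 6 of the 9 probes.

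Ly6f, a neighbour of Ly6g in the cluster, was near the limit of detection. It read -3.79, -2.61, -3.08 and -3.03 in Lck-off cells, against -5.57, -5.62 and -6.06 in WT cells. It was well above background on 3 of 4 Lck-off arrays and on 0 of 3 WT arrays, so the WT value is only a bound. Set against that bound in processed intensity, the mean Ly6f level of Lck-off cells was 1.65-fold higher. That mean includes replicate 1, which was not well above background. The measured difference was 2.62 (SE 0.27). The bound takes, for each WT array, the higher of the probe's own signal and the lowest signal among probes well above background. With normexp correction the difference was 0.54, and it was 0.58 in the authors' deposited table. Both are below 1.65-fold, so that value is no minimum.

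Ly6d, the antigen ThB, known from B cell progenitors and subsets of thymocytes, was dim as well and higher in Lck-off cells. It read -1.88, -1.42, -1.82 and -1.76 in Lck-off cells, against -3.17, -3.65 and -4.30 in WT cells. It was well above background on 4 of 4 Lck-off arrays and on 0 of 3 WT arrays. Against the same kind of bound it was 3.66-fold higher in Lck-off cells. The measured difference was 1.98 (SE 0.26), with 0.58 under normexp correction and 0.55 in the authors' deposited table. The last 2 are below 3.66-fold, so that value is no minimum.

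Ly6k and Ly6e differed less than Ly6a, Ly6c1 and Ly6g. Ly6k, which in mice is known from the testis, where sperm function depends on it, read 1.91, 1.91, 1.62 and 1.58 in Lck-off cells, against 1.01, 0.27 and 0.46 in WT cells. The difference was 1.17 (SE 0.19), or 2.26-fold, and WT replicate 1 lay closest to the Lck-off arrays. Ly6e, thymic shared antigen 1, an interferon-induced member found on many cell types, read 8.16, 8.23, 8.07 and 8.02 in Lck-off cells, against 7.27, 7.13 and 7.29 in WT cells. Its arrays were the most tightly grouped of the family, with an SD of 0.09 in each group, and the difference was 0.89 (SE 0.08), or 1.86-fold. Ly6e was bright on every array, so how dim signals were treated moved its difference little, to 0.90 with normexp correction and 0.91 in the authors' deposited table.

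Ly6i did not separate the groups. It read -3.30, -3.69, -3.47 and -2.51 in Lck-off cells, against -3.76, -3.28 and -3.26 in WT cells, and the ranges overlapped. It was well above background on 2 of 4 Lck-off arrays and 2 of 3 WT arrays, so a difference of modest size was not detectable at this brightness. The measured difference was 0.19 (SE 0.28), and without Lck-off replicate 4, its brightest array, it was -0.05. The Ly6i probe lies at chr15:74810484-74810543, the nearest Ly6 probe to that of Ly6a.

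**Figure D2:**
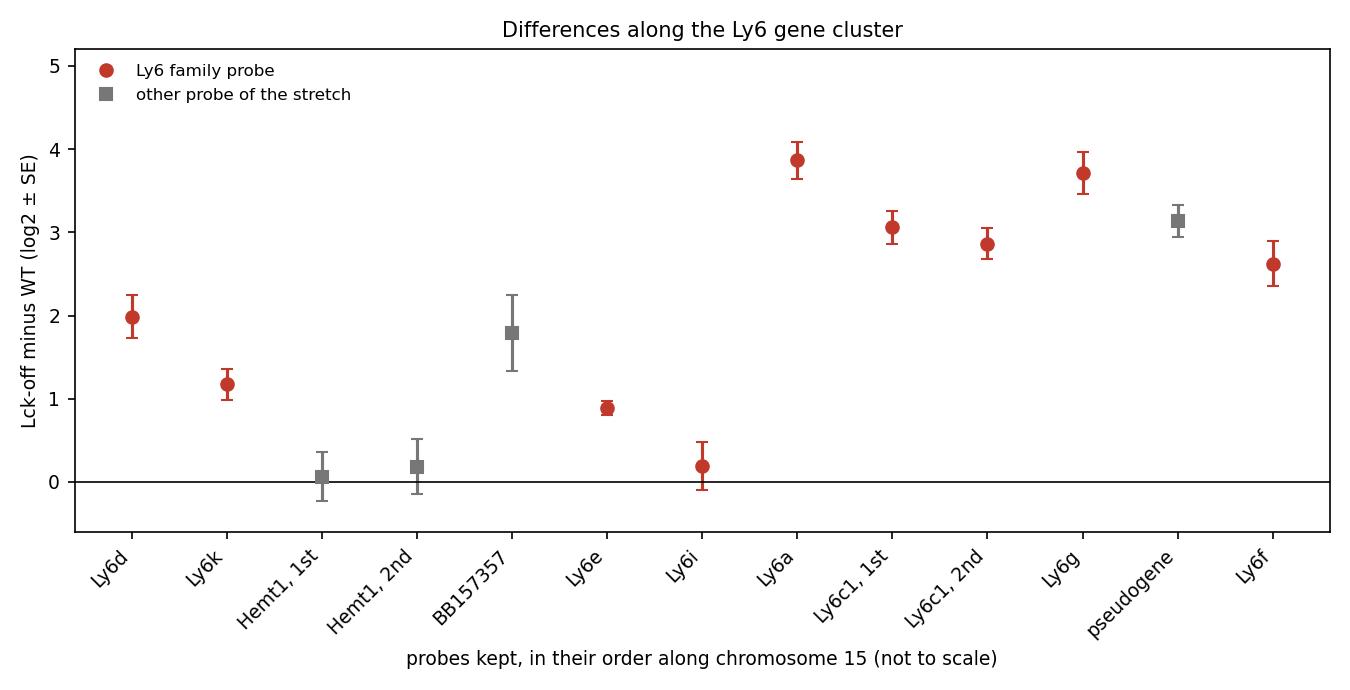
Difference, Lck-off minus WT (y axis: log2, bars ± SE), at the 13 probes of the Ly6 stretch of chromosome 15 that passed the filter on dim probes, in chromosomal order (x axis, not to scale). The 4 probes from Ly6a to Ly6g lie between 2.86 and 3.86, the pseudogene probe and Ly6f beside them at 3.14 and 2.62, and Ly6i, next to Ly6a, at 0.19.

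Along the chromosome, the 9 probes lay within 510 kb (chr15:74592551-75102522). The order was Ly6d, Ly6k, Ly6e, Ly6i, Ly6a, Ly6c1, Ly6g and Ly6f. In RefSeq, Ly6c2, which had no probe, lies between Ly6c1 and Ly6g. Among the measured members, Ly6a, Ly6c1 and Ly6g follow each other. Their differences were larger than those of Ly6k, Ly6e and Ly6i, also with normexp correction and in the authors' deposited table. The dim Ly6d and Ly6f have no settled place in that order, since their WT levels are only bounds and their differences under both alternatives fell below those of Ly6k and Ly6e. A further 17 probes fell in the same stretch, looked up after the member values were seen. Of these, 8 stayed at background on all arrays, and 4 passed the filter. The pseudogene probe was the only one of the 4 past the threshold, where 7.33% of all 25578 probes were. The 2 probes of Hemt1, which lies between Ly6k and Ly6e, differed by 0.07 and 0.18, with overlapping groups at both. BB157357, also between Ly6k and Ly6e, differed by 1.79 (SE 0.46, limma adjusted p = 0.0661) and was above background on no WT array. Against the same kind of bound as for Ly6f, it was 1.71-fold higher in Lck-off cells. Over the 17 probes, every Lck-off array was above every WT array at 5, and the groups overlapped at the rest. This held for 9.8% of all genes measured, which had passed the filter. The 5 include 2010109I03Rik, AK080018 and I830127L07Rik, at 1.52, 1.43 and 1.29. None of these passed the filter, so their differences rest on signals near background.

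**Figure D3:**
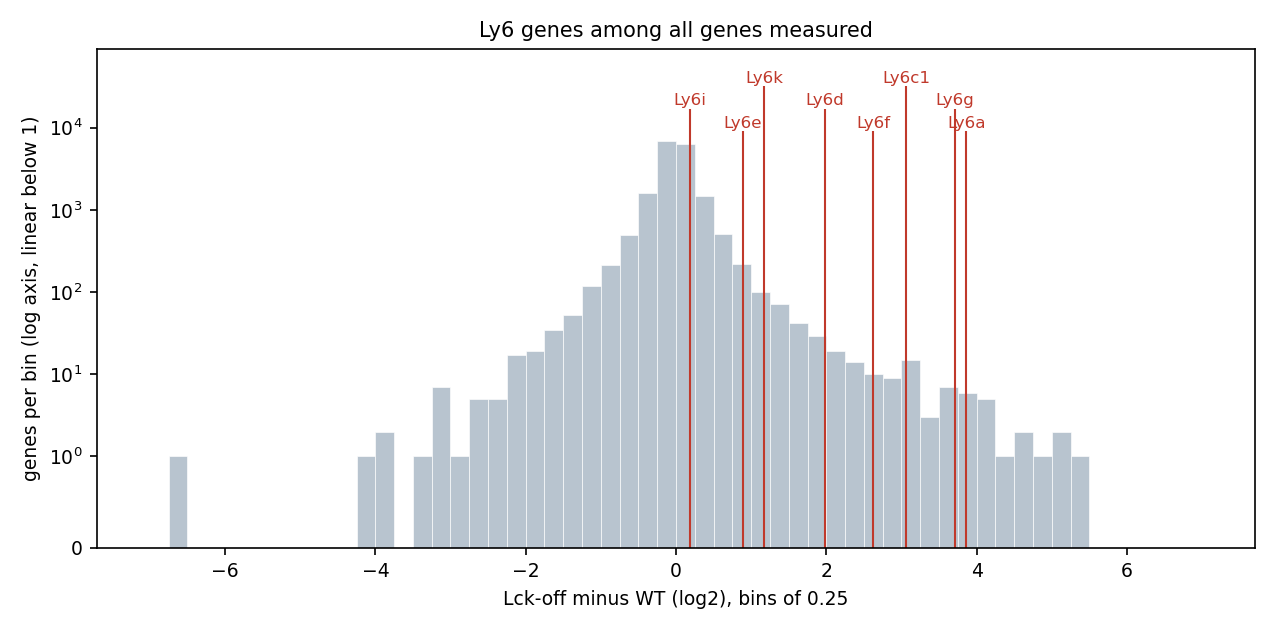
Distribution of the difference, Lck-off minus WT, over the 18231 genes measured (x axis: log2, bins of 0.25; y axis: genes per bin on a log axis), with the 8 Ly6 genes as red lines. Ly6a and Ly6g lie in the sparse upper tail, and Ly6i within the central peak.

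Upstream sequence was compared for the members that RefSeq promoter windows cover (GRCm38.p6, 300 bases around a gene's start): Ly6c1, Ly6c2, Ly6g and Ly6f, with 7 windows. The windows of Ly6c1, Ly6g and Ly6f are shown because these genes were all higher and their upstream stretches are close copies. Bases in capitals are runs of 12 or more that all 3 windows share. They are at chr15:75048788-75049087 on the minus strand for Ly6c1, chr15:75155011-75155310 on the plus strand for Ly6g, and chr15:75268171-75268470 on the plus strand for Ly6f.
Ly6c1 promoter: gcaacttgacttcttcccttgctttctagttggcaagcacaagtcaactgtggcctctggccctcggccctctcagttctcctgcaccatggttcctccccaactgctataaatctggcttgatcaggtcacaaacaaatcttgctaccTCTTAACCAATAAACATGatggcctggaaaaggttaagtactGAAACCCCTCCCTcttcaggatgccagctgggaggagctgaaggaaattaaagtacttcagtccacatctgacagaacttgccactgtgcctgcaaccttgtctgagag
Ly6g promoter: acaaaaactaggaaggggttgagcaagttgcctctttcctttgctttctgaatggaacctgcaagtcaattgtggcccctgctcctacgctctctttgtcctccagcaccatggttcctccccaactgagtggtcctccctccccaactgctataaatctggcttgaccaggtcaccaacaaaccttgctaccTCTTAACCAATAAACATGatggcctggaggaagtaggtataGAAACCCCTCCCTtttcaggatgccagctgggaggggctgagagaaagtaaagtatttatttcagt
Ly6f promoter: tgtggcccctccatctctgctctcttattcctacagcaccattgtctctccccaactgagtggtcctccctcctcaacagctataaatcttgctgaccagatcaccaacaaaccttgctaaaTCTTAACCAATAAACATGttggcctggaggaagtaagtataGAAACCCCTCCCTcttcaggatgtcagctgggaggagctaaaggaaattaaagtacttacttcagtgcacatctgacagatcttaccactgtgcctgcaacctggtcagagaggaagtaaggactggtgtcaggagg

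The aligned parts were identical at 86.6% of bases between Ly6c1 and Ly6g, 86.8% between Ly6c1 and Ly6f, and 87.8% between Ly6g and Ly6f. The unmeasured Ly6c2 shared 82.3% with Ly6c1, 83.8% with Ly6g and 85.0% with Ly6f. Of the 31 bases in capitals, 18 form the longest run. The 7 windows come from 4 genes whose aligned windows are close copies, so they are not 7 separate observations. The box TATAAA, searched on both strands, was found in 4 of the 7 windows, from 3 of the 4 genes. Of all 32851 RefSeq windows, 13.6% held it. The interferon-stimulated response element, searched on both strands as GAAA, any 2 bases and GAAA, was in 0 of the 7 windows and 3.44% of all windows. The STAT motif TTCNNNGAA, a palindrome, was in 0 of the 7 windows and 8.3% of all. These letters are matches or their absence in these windows and say nothing of whether a factor binds.

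Among genes of the same protein fold outside the 9 members, the share called was near that of all genes. Of 42 other Ly6 and LU-domain genes listed by family name, 28 were on the array and 11 were measured. Of the 11, 1 rose, 0 fell and 10 did not pass the limma threshold (4 of the 11 had an unadjusted p under 0.05, and 8.38% of all genes passed), with differences of -0.55 to 0.37 among the 10 and a median of -0.05 over the 11. The gene that rose was 9030619P08Rik, a transcribed pseudogene on chromosome 15 in RefSeq. It read 2.27, 2.65, 3.11 and 3.05 in Lck-off cells, against -0.99, -0.30 and -1.28 in WT cells, a difference of 3.62 (SE 0.29, limma adjusted p = 0.00071). The brightest members that did not pass were Lypd6b, with a difference of -0.00 (adjusted p = 0.994), and Plaur, the urokinase receptor, with -0.05 (adjusted p = 0.910). Thus Lypd6b and Plaur, which were bright enough to measure on all arrays, had overlapping groups.

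Type I interferon response genes, from a list kept from earlier work on these data, moved beside the Ly6 genes. Of 38 genes measured, 37 rose and 1 did not pass, with a median difference of 1.68. The 1 was Ifitm3, named after its values were seen, at 2.34 (SE 0.83, limma adjusted p = 0.153). Mx1, an antiviral GTPase, had a difference of 4.52 (SE 0.25), its relative Mx2 3.11 (SE 0.19), the nuclease gene Isg20 2.15 (SE 0.17) and Tor3a 1.44 (SE 0.12). The median level of the list was 4.46, 4.45, 4.55 and 4.69 on the Lck-off arrays, against 1.63, 2.94 and 2.24 on the WT arrays. WT replicate 2 was therefore the highest WT array for this list. It was also the highest for Ly6a, Ly6c1 and Ly6g, but not for Ly6d, Ly6e, Ly6f, Ly6i and Ly6k. The lowest WT array was replicate 1 for this list and replicate 3 for Ly6a, Ly6c1 and Ly6g. Over the Ly6 genes the median level was 1.08, 1.35, 1.31 and 1.17 on the Lck-off arrays, against -1.06, -1.11 and -1.40 on the WT arrays, with replicate 3 lowest. The part of interferon signalling in the Ly6 levels was not tested.

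The genes whose level over the 7 arrays was most like that of Ly6a were named by Pearson's r, as a description, among 11248 genes with symbols. They were Mov10 (r = 0.998), Gbp4 (r = 0.998), Gm11127 (r = 0.997), 9030619P08Rik (r = 0.997) and Phf11 (r = 0.996). This r takes in the step between the groups, and 39 genes had an r above 0.99. Their differences were unequal, at 0.64 for Mov10, 0.72 for Gbp4, 0.60 for Gm11127, 3.62 for 9030619P08Rik and 1.98 for Phf11. Over deviations from the group means, the highest included Gm2012 (0.988), Paqr6 (0.979), Gbp4 (0.974) and Gm10777 (0.973). Gbp4, an interferon-induced GTPase, was named by both measures, and the groups overlapped for Gm2012 and Paqr6. With 7 arrays and 11248 genes, the highest values of r can be this large by chance. Nothing is read from the genes named or from Gbp4 being named by both measures.

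Because Ly6 antigens mark several cell types, markers of those cells and of the sorted cells were read on the same arrays. In such bulk RNA, fewer cells of a type and less RNA per cell cannot be told apart. Of 13 measured T cell identity genes, 0 passed the limma test, and 4 had an unadjusted p under 0.05. Cd8b1, a chain of the sorted antigen, differed by 0.25 (limma adjusted p = 0.065), Cd8a by 0.28 (adjusted p = 0.146) and Cd3e by -0.04 (adjusted p = 0.801). A 2nd, dimmer Cd8a probe differed by 0.48 (SE 0.11), and at it every Lck-off array was above every WT array.

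Ly6C is often read with CD44 as a sign of memory in CD8 cells, and here these genes went opposite ways. Cd44 was 1.18 lower in log2 terms, at -1.87 ± 0.36 in Lck-off cells (SD, n = 4) and -0.69 ± 0.13 in WT cells (SD, n = 3; limma adjusted p = 0.0105). The cells were sorted as CD44low in both groups. Of the 14 measured CD44 and memory CD8 genes, 2 rose, 5 fell and 7 did not pass. Named after their values were seen, Gzma, a granzyme of killer cells, and Il2ra, a chain of the interleukin 2 receptor that was above background on no WT array, rose. Cd44, Eomes, Il2rb, Nkg7 and Tbx21 fell, Eomes and Tbx21 being transcription factors of memory and effector CD8 cells.

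For neutrophils, the cells that carry Ly6G, 14 markers were on the array, 4 were measured, and 0 of the 4 passed the limma test or had an unadjusted p under 0.05. Their summed level, in multiples of the array's 75th percentile, was 188.4 to 222.1 on Lck-off arrays and 178.2 to 211.7 on WT arrays. It came mostly from Csf3r, which differed by 0.11 (limma adjusted p = 0.612). The sum thus follows the Csf3r probe and leaves out S100a8 and S100a9, which did not pass the filter, so it is no measure of neutrophil content. The granule and receptor genes Cxcr2, Ltf, Mmp9, Ngp, Prtn3 and Retnlg were above background on no array. S100a8 and S100a9, the most abundant neutrophil transcripts, were above background on Lck-off replicate 2 alone, at -2.10 and -0.07. The Ly6g difference was 3.68 without Lck-off replicate 2.

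Lck-off replicate 2 was the highest array at 5 of the 9 Ly6 probes, those of Ly6c1, Ly6d, Ly6e and Ly6f. Without it the differences were 2.97 for Ly6c1, 1.88 for Ly6d, 0.86 for Ly6e, 2.45 for Ly6f, 3.82 for Ly6a and 1.12 for Ly6k, each within 0.2 of the value with all arrays.

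For monocytes and macrophages, which carry Ly6C, 9 of 16 markers on the array were measured, of which 2 rose, Ms4a6d by 1.67 (adjusted p = 0.00116) and the complement gene C1qb by 0.59 (adjusted p = 0.0469), both named after their values were seen. All 9 were higher in mean in Lck-off cells, with a median difference of 0.64, and 4 had an unadjusted p under 0.05. Among those that did not pass, the complement genes C1qc and C1qa differed by 1.75 (adjusted p = 0.0932) and 1.38 (adjusted p = 0.0734). Each was well above background on only 1 WT array, so the size of these differences depends on signals near background. The summed level, mostly from Itgam, which differed by 0.14, was 51.8 to 60.5 on Lck-off arrays and 41.6 to 58.5 on WT arrays. Ccr2, the receptor of Ly6C-high monocytes, was above background on no array, Lyz2 on 1, and Csf1r differed by 0.20 (adjusted p = 0.623). Of 8 measured dendritic cell markers, 0 passed the limma test and 2 had an unadjusted p under 0.05, with a median difference of 0.64. The MHC class II genes H2-Ab1, H2-Eb1 and H2-Aa differed by 1.40, 1.26 and 1.07, and the invariant chain gene Cd74 by 1.12 (adjusted p 0.223 to 0.374), with overlapping groups at each. The summed level, mostly from Siglech, was 288.5 to 348.3 on Lck-off arrays and 279.9 to 299.1 on WT arrays. It thus follows that gene and is no measure of dendritic cell content. The defining gene Siglech was bright at 1 of its 3 probes, by 0.10 more in Lck-off cells (adjusted p = 0.609), and above background on 1 array each at the others.

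For B cells, which can carry Ly6D, 3 of 12 markers were measured and 0 passed the limma test or had an unadjusted p under 0.05. Their summed level was 11.8 to 14.5 on Lck-off arrays and 12.1 to 14.2 on WT arrays, mostly from Cd79b, which differed by -0.08. Of the 12, 8 were at background on all arrays, and Cd79a differed by -0.02 (adjusted p = 0.973). For endothelial and stromal cells, which can carry Sca-1, 7 of 18 markers were measured and 2 were lower (Egfl7 and Pdgfrb, named after their values were seen). Pdgfrb was above background on no Lck-off array. The summed level was 10.66 to 14.89 on Lck-off arrays and 12.1 to 12.4 on WT arrays, mostly from Kdr, which differed by -0.02. Cdh5 was among 11 at background on all arrays, and Pecam1 differed by 0.07 (adjusted p = 0.758). Of 4 measured NK cell markers, 1 was lower, Eomes, and the median difference was 0.64. Fcer1g differed by 0.90 (adjusted p = 0.220) and Tyrobp by 0.66 (adjusted p = 0.473), with overlapping groups. Over the 4 markers there was a summed level of 2.73 to 4.32 on Lck-off arrays and 3.57 to 4.32 on WT arrays. Eomes, which memory and effector CD8 cells also express, was the largest part of that sum, so the sum does not show how Fcer1g and Tyrobp moved. The part of such cells in the Ly6 differences was not tested.

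Slide row moved with the size of the differences but not with their direction in the 7 called genes. Within row 1 (2 Lck-off arrays and 1 WT array) the difference was 4.32 for Ly6a, 3.62 for Ly6c1, 4.32 for Ly6g, 3.22 for Ly6f, 2.68 for Ly6d, 1.30 for Ly6k and 0.87 for Ly6e. Within row 2 (2 Lck-off arrays and 2 WT arrays) it was 3.56 for Ly6a, 2.72 for Ly6c1, 3.31 for Ly6g, 2.19 for Ly6f, 1.59 for Ly6d, 1.105 for Ly6k and 0.89 for Ly6e. Row 1 thus gave the larger value for 6 of the 7 genes, all but Ly6e, and its only WT array was the one with the lowest levels at 6 of the 9 probes. Ly6i differed by -0.32 in row 1 and 0.62 in row 2. With slide row as a block, the difference was 3.86 for Ly6a, 3.08 for Ly6c1 and 3.72 for Ly6g.

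**Figure D4:**
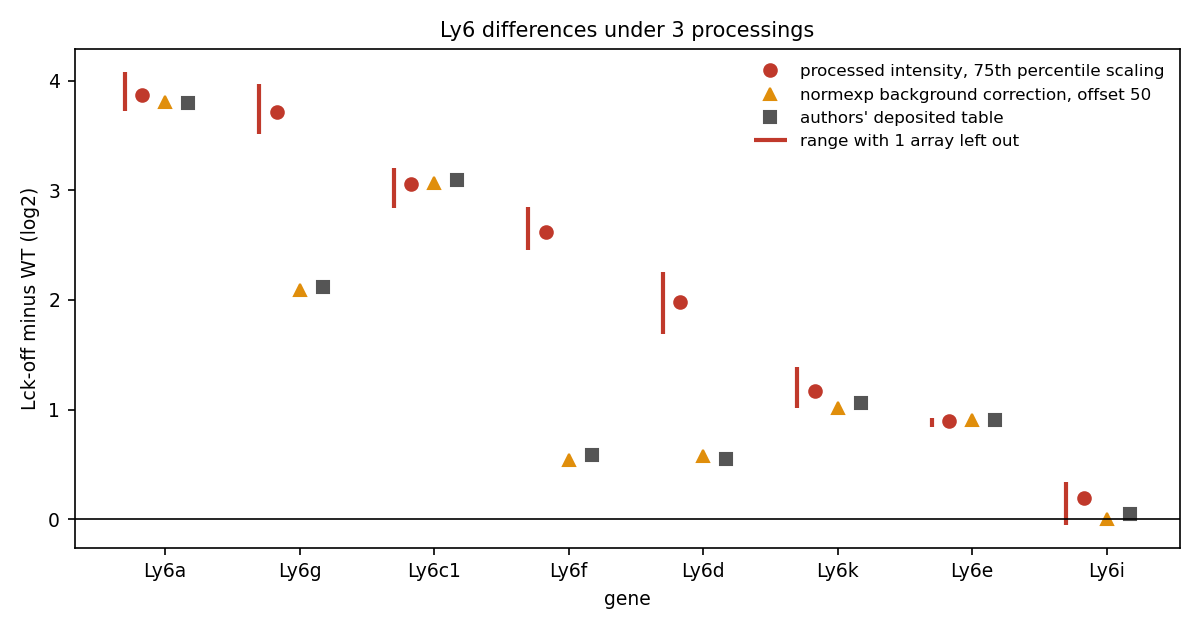
Difference, Lck-off minus WT (y axis: log2), of the 8 Ly6 genes (x axis) from the scanner's processed intensity, after normexp background correction and in the authors' deposited table, with the range over leaving out 1 array as a vertical line. The symbols lie close together for Ly6a, Ly6c1, Ly6k and Ly6e. They lie far apart for the dim Ly6f and Ly6d and for Ly6g, which was dim in WT cells.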

How the data were processed

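Total RNA of 4 Lck-off and 3 WT samples was measured with 1 dye (Cy3) on 7 arrays. Intensity values came from Feature Extraction 10.7.3.1 on array design 028005, per the file headers, which record background subtraction and detrending within each array. Other columns, per the file headers, are flags for spots above background, saturated or uneven, and the mean and local background intensity. The deposited table holds log2 values, judging by their range. For it the submitters' processing notes give limma alone, without its settings. Its columns correlated best with the scanner values of their own array (Spearman 0.930 to 0.959, against at most 0.897 to 0.919 with another).

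From there, log2 processed intensity minus each array's 75th percentile was fitted with limma 3.58.1 in R 4.3.3 (lmFit and eBayes, Benjamini-Hochberg adjustment over all genes, threshold 0.05). Uneven spots were set to missing. A probe was kept if 3 or more of the 7 arrays had it well above background (25578 of 55681), and the brightest kept probe stood for a gene name (18231 of 34797). The script was tested on simulated data. The number of arrays limits the precision. Probe and promoter sequences were compared with Python 3.11.15 and Biopython 1.88.

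The members, gene lists and tests were chosen with earlier results of these data known. The text names every member, Lck, called list genes and the 2 brightest uncalled LU-domain genes, up to 4 interferon genes of smallest p, set defining markers, and the 5 genes most like Ly6a by each of 2 measures; 3 genes that this rule names are not reported here. Groups share replicate numbers 1 to 3. Deviations of same-numbered arrays correlated at 0.106, 0.05 and -0.01, which shows no sign of pairing. So few correlations cannot exclude it, and the arrays were treated as unpaired. Alternatives changed background correction, normalization, filter, probe choice, moderation, outlier spots, replicate block, slide row and the arrays used.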

Additional observations from a re-analysis of the deposited data

Results flagged for a closer look

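Ly6a on Lck-off replicate 1 lay apart from the other Lck-off arrays, at 5.79 against 6.38, 6.43 and 6.37. Its gap to the nearest array was 0.916 of the group's whole range, above the critical value for 4 samples. Chance gives such a result in about 1 of 20 groups, and the 9 Ly6 probes were looked at. The difference of Ly6a with each array left out in turn was 3.72 to 4.08.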

How the results depend on the processing

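The Ly6 genes were chosen on these values, so their direction or count under the 20 alternatives is a description and no sign of stability. The number past the threshold was 6 with the filter on all arrays of 1 group, which left 6 measured, 6 with the replicate block (without Ly6k), 4 in row 1 alone and 0 in row 2 alone (where limma called 0 of all genes, with 2711 genes at an unadjusted p under 0.05). With the replicate number as a block, 374 genes (2.05%) and 23 interferon genes were called, and Ly6i was -0.05. Whether the numbers pair the arrays was not settled, so nothing is read from a lost call there. The median Ly6 difference was 0.96 with normexp correction, 0.98 in the authors' deposited table, 2.52 with the stricter filter, 2.95 in row 1, 1.89 in row 2, and 2.08 to 2.48 with 1 array left out. All genes called numbered 717 without a filter, 105 in row 1, and 960 to 1405 with 1 array left out, with 960, 984, 964 and 968 without WT replicate 2, WT replicate 3, Lck-off replicate 3 and Lck-off replicate 4. Interferon genes called numbered 11 in row 1 and 0 in row 2. Other LU-domain genes called numbered 2 with normexp, no filter, the stricter filter or trended moderation, 0 in row 2, and 1 to 3 with 1 array left out (3 without WT replicate 2 and 2 without Lck-off replicate 2). Marker genes of other cells called, 5 in all, numbered 3 with normexp, quantile normalization, no filter or the row block, 1 in row 1, 0 in row 2, and 3 to 5 with 1 array left out (3 without WT replicate 1 or 3 or Lck-off replicate 2 or 3). Lypd6b, at -0.0034, turned to 0.0038 with normexp, 0.008 with quantile normalization, 0.0122 in the deposited table and 0.18 in row 2, and ran from -0.0977 to 0.131 with 1 array left out. Plaur turned to 0.0079 in the deposited table and ran from -0.189 to 0.0572 with 1 array left out. The Lck call was lost in 11 alternatives. Apart from the fewer arrays or genes that some alternatives use, and the offset of normexp, the cause was not tested. Signals near background, for Ly6g those of WT cells, limit Ly6d, Ly6f, Ly6g and Ly6i.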
